A study of Mus musculus with 6 samples.

Results

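Dpep1, a membrane dipeptidase, was followed together with its relative Dpep2, the gamma-glutamyl transferases Ggt1 and Ggt5, and the membrane peptidases Mme and Anpep. Added to these were the leukotriene enzymes Alox5, Lta4h and Ltc4s and the helper protein Alox5ap. All probe sets whose single gene symbol was one of these 10 names were taken, which gave 14 probe sets for 8 genes, of 18193 genes with a probe set in all. Signals of Dpep2 and Ggt1 were not analysed here. The set was built around Dpep1, which had been selected on its signal in the same comparison of array values that is described here, so the members' differences are given as measurements, and support nothing; how many passed the threshold of the fit is printed once, as a description.

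The cells came from ovaries of female Gli1-CreERT2; Rosa-LSL-tdTomato mice of the strain 129S6/SvEvTac at 2 months of age, and all 6 samples carried both alleles and had received tamoxifen. Gli1 is a transcription factor switched on by hedgehog signalling, and the allele marks for life, in red, cells that expressed Gli1 while tamoxifen was present. In the mesonephros-derived group (3 samples) the embryos were exposed 3 times (embryonic days E12.5, E14.5, E16.5), and in the ovary-derived group (3 samples) the pups received it through their mother's milk between postnatal days 1 and 3. Cells were sorted by tdTomato fluorescence, and the RNA of each sample was read on 1 oligonucleotide array. The labels mention sorting of marked and unmarked cells alike, and call these samples labelled theca cells, the steroid-making layer around the follicle, so they are taken here as the marked fraction. The origin named in the labels and the time of tamoxifen changed together, so they cannot be told apart.

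Leukotrienes are lipid signals made from arachidonic acid. Alox5, the 5-lipoxygenase, works with its helper Alox5ap to make leukotriene A4, which Lta4h hydrolyses to leukotriene B4 and which Ltc4s joins to glutathione to give leukotriene C4. The last steps take place outside the cell: a gamma-glutamyl transferase removes the glutamate of leukotriene C4 to give leukotriene D4, and a membrane dipeptidase removes the glycine to give leukotriene E4. The same pair of steps takes glutathione itself apart, so that its amino acids can be taken up again, and in the kidney these enzymes sit with Mme and Anpep on the brush border of the tubule.

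The arrays of the groups were not equally even. Over all probe sets, ovary-derived arrays correlated with each other at 0.963 to 0.973 on the log2 scale, and mesonephros-derived arrays at 0.844 to 0.896. Mesonephros-derived replicate 3 correlated more closely with the ovary-derived arrays, at 0.946 to 0.95, than with the other arrays of its own group, at 0.876 and 0.896. Poly-A spike-in probe sets read 2.28 to 11.7 times the ovary-derived mean on mesonephros-derived arrays and 0.72 to 1.63 times on ovary-derived ones, and hybridization spikes 1.4 to 3.41 and 0.838 to 1.24 times. For Gapdh, control probes near the 3′ end over those near the 5′ end, which rise as RNA is degraded or cut short in amplification, gave 5.29, 3.48 and 2.63 on mesonephros-derived replicates 1, 2 and 3 and 1.94, 2.39 and 2.86 on the ovary-derived ones. The part of this ratio and of the hybridization spikes in the results was not tested. Values without single arrays and with the spike signal as a covariate are given with the results and in the closing section. Signals are listed below in the order of replicates 1, 2 and 3. Marked cells were measured in bulk, so fewer cells of a type and less RNA per cell cannot be told apart.

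Dpep1 was the one member above the floor, a signal of 99.4 below which genes were not compared, whose values separated the groups. Its product is an enzyme held on the outer face of the plasma membrane by a lipid anchor, where it splits dipeptides such as cysteinyl-glycine and turns leukotriene D4 into leukotriene E4. The probe set 1435943_at read 3098, 7459 and 6414 on the mesonephros-derived arrays and 719, 488 and 705 on the ovary-derived arrays. The lowest mesonephros-derived array, replicate 1, thus lay above the highest ovary-derived one. The means were 5657 ± 2277 and 637 ± 129.7 (SD, n = 3 each), and the log2 change, mesonephros-derived minus ovary-derived on the scale log2(signal + 16), was 3.04 ± 0.33 (SE), or 8.25-fold.

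The other Dpep1 probe set, 1419674_a_at, gave the same separation with far less scatter. It read 1990.1, 1858 and 1814 on the mesonephros-derived arrays and 191, 190.3 and 184 on the ovary-derived arrays. The 3 mesonephros-derived arrays lay close together, although they were the less even group over all probe sets. The means were 1887 ± 91.8 and 188 ± 3.96 (SD, n = 3 each), and the log2 change was 3.22 ± 0.25 (SE), or 9.30-fold. Among 27029 probe sets whose mean lay above the floor, this change ranked 5 in size and that of 1435943_at ranked 11. Taken per gene, with the brightest probe set standing for each gene, Dpep1 had the largest change on the higher side among 11703 genes. It was chosen for this, so the rank is part of the choice.

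The 2 Dpep1 probe sets did not order the mesonephros-derived arrays alike. Replicate 1 was the lowest of its group for 1435943_at, 2.27 log2 units above the ovary-derived mean against 3.54 and 3.32 for replicates 2 and 3. For 1419674_a_at replicate 1 was the highest, at 3.29 against 3.20 and 3.16. The difference between groups lay between 2.80 and 3.43 log2 units for 1435943_at, and between 3.18 and 3.25 for 1419674_a_at, whichever single array was left out.

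**Figure D1:**
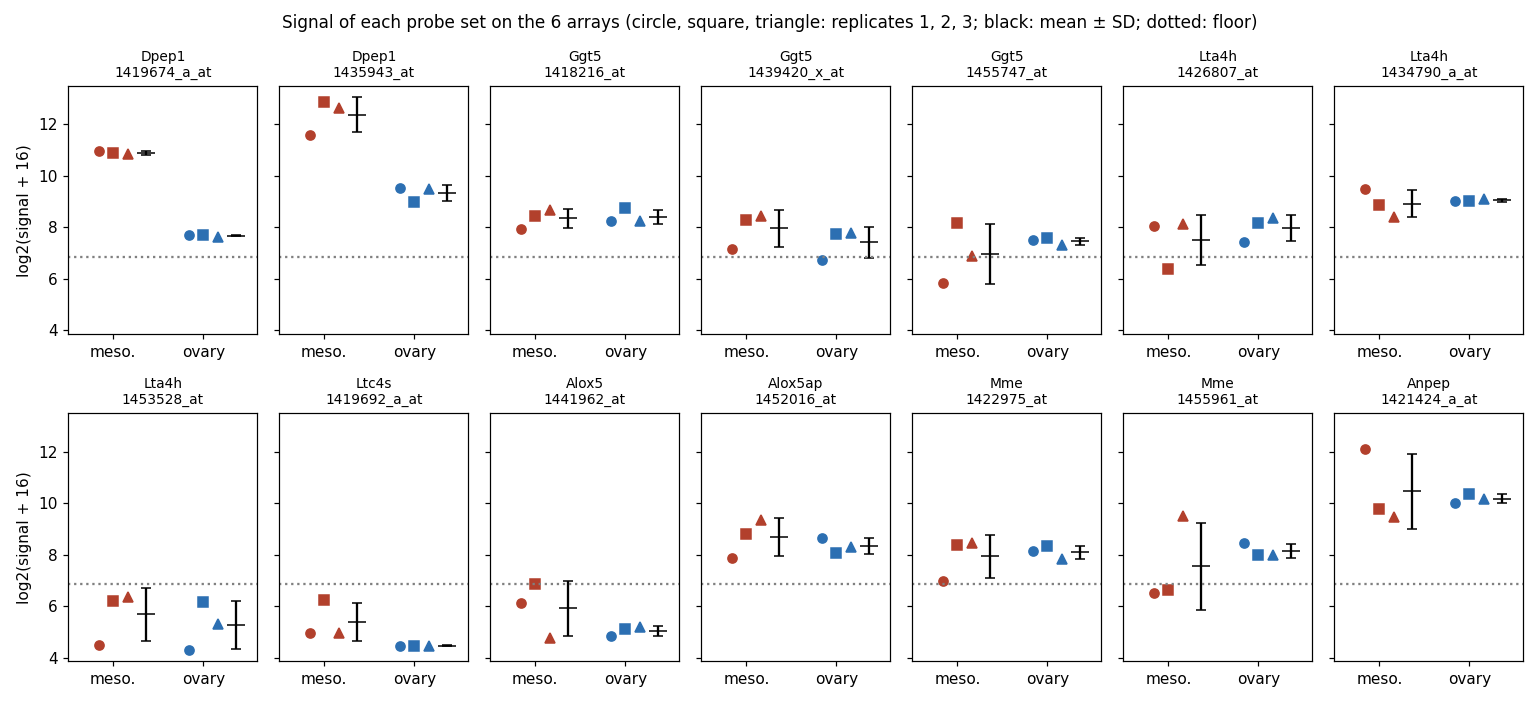
Signal of each of the 14 probe sets, as log2(signal + 16) on the vertical axis, for mesonephros-derived (red) and ovary-derived (blue) arrays, with symbols for replicates 1, 2 and 3, black bars for the mean and SD of each group (n = 3) and a dotted line at the floor. Both Dpep1 probe sets show groups that lie apart, while for Ggt5, Lta4h, Alox5, Alox5ap, Mme and Anpep the groups overlap.

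The 250 bases that precede the RefSeq start of Dpep1 are shown because it is the gene whose signal set the groups apart. They are given on the + strand from 5′ to 3′ (GRCm38.p6, chr8:123185985-123186234). The window was searched on both strands for a TATA box, TATAAA, and a GC box, GGGCGG. A search for the CCAAT box, CCAAT, and for the AAGGTCA half-site of orphan nuclear receptors followed. The last searches were for the GLI site GACCACCCA and the E-box CANNTG, and matches would stand in capitals.
Dpep1 upstream: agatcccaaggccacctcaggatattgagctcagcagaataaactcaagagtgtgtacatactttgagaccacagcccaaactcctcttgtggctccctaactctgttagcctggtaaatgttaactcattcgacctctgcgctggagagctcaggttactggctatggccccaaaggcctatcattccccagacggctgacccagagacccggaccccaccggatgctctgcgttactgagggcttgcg
The window held 0 matches to each of these motifs, which says only that these letters are not in it. Of 32851 windows of this length, 12.4% held the TATA box, 32.7% the GC box, 33.8% the CCAAT box, 4.08% the half-site, 0.225% the GLI site and 66.2% the E-box. The promoter table held 12 windows of 7 of the genes followed here, so some genes had more than 1. The GC box was found in 7 of the 12 windows, all of them of Alox5, Anpep, Ggt1 or Mme. The CCAAT box was found in 5, the E-box in 5 and the TATA box in 1. The half-site and the GLI site were found in 0.

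Ggt5 was the transferase measured. It is the gamma-glutamyl transferase relative known for turning leukotriene C4 into leukotriene D4, the step just before the dipeptidase. Its brightest probe set, 1418216_at, read 226, 336 and 388 in the mesonephros-derived and 286, 411 and 287 in the ovary-derived group. The groups overlapped, and the log2 change was −0.06 ± 0.36 (SE). This value turned to 0.01 after quantile normalization, to 0.02 with each array centred on its median, to 0.15 without mesonephros-derived replicate 1 and to 0.10 without ovary-derived replicate 2, so no direction is given. The other Ggt5 probe sets lay on both sides of 0. For 1439420_x_at the signal was 126, 300.2 and 333 against 90.5, 201 and 205, with a log2 change of 0.54 ± 0.52 (SE), and leaving out 1 array moved it between 0.19 (ovary-derived replicate 1) and 0.95 (mesonephros-derived replicate 1). For 1455747_at it was 41.9, 271 and 101 against 165, 175 and 142, with a log2 change of −0.50 ± 0.61 (SE), which was 0.06 without mesonephros-derived replicate 1 and −1.10 without replicate 2. In all 3 probe sets mesonephros-derived replicate 1 was the lowest array of its group.

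Of the genes that make leukotrienes, Alox5 and Ltc4s had means below the floor in both groups, and Alox5ap and Lta4h lay above it. Alox5, which starts the pathway, read 53.5, 100.3 and 11.1 in the mesonephros-derived and 12.4, 19.0 and 20.5 in the ovary-derived group. Only mesonephros-derived replicate 2 reached the floor, and the groups overlapped. Ltc4s, which makes leukotriene C4, had a signal of 15.2, 59.6 and 15.4 against 5.61, 6.11 and 5.96. The groups did not overlap, but all 6 arrays lay below the floor, so no fold is given for either gene.

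Alox5ap, the membrane protein that hands arachidonic acid to Alox5, was well above the floor on every array. It read 220.0, 427 and 641 in the mesonephros-derived and 389.6, 248 and 302 in the ovary-derived group. Mesonephros-derived arrays held both the lowest and the highest value, and the log2 change was 0.34 ± 0.43 (SE). Leaving out mesonephros-derived replicate 3 gave −0.0015, and leaving out replicate 1 gave 0.74. Alox5ap and Alox5 are best known from myeloid cells, and a list of 16 myeloid and mast cell markers had a summed signal of 1126, 13158 and 4496 on mesonephros-derived arrays and of 5767 to 8065 on ovary-derived ones. Itgam, Cd14, S100a8, S100a9, Mcpt4 and Ms4a2 of this list were below the floor on all arrays. Of its 9 genes above the floor, 0 were higher and 9 lower, with a median log2 change of −0.65. Over all genes tested, 5091 were higher and 6612 lower. The 9 genes of the list ran from Csf1r, the receptor of a macrophage growth factor, at −2.88 ± 1.12 (SE), or −1.26 without mesonephros-derived replicate 1, to Fcer1g, an Fc receptor subunit, at −0.17 ± 0.60, or 0.52 without the same array. Csf1r read 2.81, 615 and 461 against 1300.2, 1583 and 1059.9, and its other probe sets above the floor stood at −1.75 and −0.03. Within the mesonephros-derived group, replicate 1 was the lowest for the summed markers and for Alox5ap, and replicate 2 was the highest for the markers and for Alox5, while Alox5ap was highest in replicate 3. The part of such cells in the signals of Alox5ap and Alox5 was not tested.

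Lta4h, the hydrolase that makes leukotriene B4 and also acts as an aminopeptidase, was read by 3 probe sets. The brightest, 1434790_a_at, read 704, 447 and 327 in the mesonephros-derived and 501, 504 and 534 in the ovary-derived group. Ovary-derived arrays lay within a narrow band, inside the range of the mesonephros-derived ones, and the log2 change was −0.12 ± 0.33 (SE), or 0.13 without mesonephros-derived replicate 3 and −0.41 without replicate 1. For 1426807_at the signal was 247, 68.5 and 265 against 155, 272 and 317, with a log2 change of −0.47 ± 0.56 (SE) that was 0.10 without mesonephros-derived replicate 2. The probe set 1453528_at was below the floor on all 6 arrays. The probe sets above the floor thus had their lowest array in different mesonephros-derived replicates, replicate 3 for 1434790_a_at and replicate 2 for 1426807_at.

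Mme, or neprilysin, cuts peptides such as enkephalins, substance P and natriuretic peptides at the cell surface. Its probe set 1422975_at read 109.6, 315 and 335 in the mesonephros-derived and 267, 305 and 209 in the ovary-derived group, and the groups overlapped. The log2 change was −0.16 ± 0.48 (SE), or 0.32 without mesonephros-derived replicate 1. The probe set 1455961_at had a signal of 75.0, 82.2 and 709 against 337, 236 and 239. Here mesonephros-derived replicate 3 was the highest of all 6 arrays and replicates 1 and 2 the lowest, so that the log2 change of −0.60 ± 0.74 (SE) describes none of the arrays well. It was −1.58 without replicate 3, −0.09 without replicate 1 and −0.14 without replicate 2. Both Mme probe sets were lowest in replicate 1.

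Anpep, aminopeptidase N, trims single amino acids from the ends of small peptides, among them those left by neprilysin and by the breakdown of glutathione. It read 4426, 866 and 688 in the mesonephros-derived and 1023, 1304 and 1117 in the ovary-derived group. Replicate 1 alone lay above the ovary-derived arrays, and replicates 2 and 3 lay below all of them. The log2 change of 0.28 ± 0.58 (SE) turned to −0.56 without mesonephros-derived replicate 1, and was 0.77 without replicate 3. The replicate with the highest Anpep was the one with the lowest signal for Alox5ap and for both Mme and all 3 Ggt5 probe sets.

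**Figure D2:**
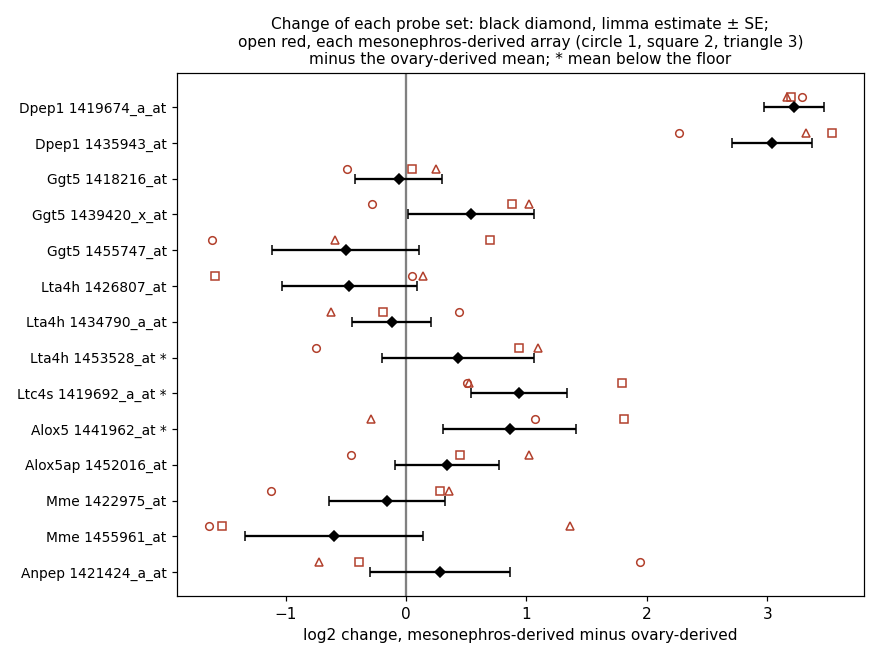
Log2 change of each probe set, mesonephros-derived minus ovary-derived (black diamonds, with the SE of the limma fit), and, in open red symbols, each mesonephros-derived array minus the ovary-derived mean; an asterisk marks probe sets whose mean lay below the floor. The 2 Dpep1 probe sets stand at 3.22 and 3.04, and those of the other genes above the floor lie between −0.60 and 0.54.

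Across the 14 probe sets, 8 changes were above 0 and 6 below, and 12 were smaller than 1 log2 unit. The changes above 0 included those of Ltc4s, Alox5 and Lta4h 1453528_at, whose means lay below the floor. The 6 probe sets with changes below 0 all had means above the floor. In 3 of the 14 the groups lay apart, both of Dpep1 and that of Ltc4s, all with the mesonephros-derived group higher. For Ltc4s every array lay below the floor, so its order is not read. Over all 45037 probe sets the groups lay apart in 18.8%, and in 8.22% with the mesonephros-derived group higher. Of the 6 member genes above the floor, 1 (Dpep1) passed an adjusted p of 0.05 in limma, where 0.0427% of all genes tested passed and 0.0342% were higher, and of the 14 probe sets 1 (Dpep1, 1419674_a_at) passed, against 0.00444% of all probe sets. Since this comparison chose Dpep1, nothing is read from these counts.

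The spread within groups differed widely between the probe sets. The SD between mesonephros-derived arrays was 0.07 log2 units for Dpep1 1419674_a_at, smaller than for all but 1.52% of the probe sets above the floor, and 0.68 for 1435943_at, where 64.5% were smaller. For Anpep it was 1.45 and for Mme 1455961_at 1.70, with 93.7% and 96.5% of probe sets below them, while the median of all was 0.52. Between ovary-derived arrays Anpep and Mme 1455961_at had an SD of 0.18 and 0.27, against a median of 0.23.

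The rest of glutathione turnover was read from a list of 23 genes of synthesis, breakdown and transport. Of its 13 genes above the floor, 7 were above 0 and 6 below, with a median log2 change of 0.07 against −0.08 for all genes tested. By limma 0 passed an adjusted p of 0.05, as with arrays weighted by their noise. At an unadjusted p under 0.05, 1 was higher and 1 lower, and over all genes 13.7% were past it, 6.46% higher and 7.22% lower. Slc3a1, a subunit of the cystine transporter of kidney tubules, read 1164, 921 and 671 against 379, 461 and 423, a log2 difference of 1.07 ± 0.29 (SE; adjusted p = 0.246 in limma) that was 0.44 with the spike signal as a covariate. Acy3, an aminoacylase that acts on cysteine conjugates, had one of −1.12 ± 0.46 (adjusted p = 0.351), and −0.73 without mesonephros-derived replicate 1. In these 2 of the 13 genes the groups lay apart, Slc3a1 higher and Acy3 lower in the mesonephros-derived group, where 22.2% of all genes tested had groups that lay apart. Ggct, the gamma-glutamyl cyclotransferase, stood at 0.61 ± 0.35 with another probe set at −1.10, Ggact, a related enzyme, at −0.49 ± 0.49, and the glutathione-making enzymes Gclc at 0.10 ± 0.37 and Gss at −0.30 ± 0.40. Single arrays moved these values: Ggct was 0.40 without mesonephros-derived replicate 3, and Ggact was −0.03 without replicate 1. Gss lay between −0.69 without mesonephros-derived replicate 1 and −0.08 without replicate 2, with −0.13 without replicate 3. Gclc was −0.17 without mesonephros-derived replicate 1 and −0.04 without ovary-derived replicate 3. The relatives of the members, Ggt6, Ggt7 and Dpep3, had a mean below the floor.

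The rest of the leukotriene pathway was read from 30 genes of substrate supply, related enzymes, export, receptors and breakdown. Of 16 above the floor, 5 were above 0 and 11 below, with a median log2 change of −0.23. By limma 0 passed the adjusted threshold, 0 had an unadjusted p under 0.05 and 0 passed with weighted arrays. Mgst2, a microsomal enzyme that can also make leukotriene C4, read 137, 334 and 144 against 69.8, 95.6 and 103, a log2 difference of 0.97 ± 0.47 (SE; adjusted p = 0.395 in limma) that was 0.59 without mesonephros-derived replicate 2 and 0.31 with the spike covariate. The related Mgst3 stood at −1.06 ± 0.73, or −0.28 without mesonephros-derived replicate 2. Pla2g4c, a phospholipase that frees fatty acids, stood at 0.86 ± 0.45, and at 0.30 by the mean of its probe sets, and the lipoxygenase Alox12e at −0.66 ± 0.45, or −0.35 without mesonephros-derived replicate 1. The receptors of leukotrienes, Cysltr1, Cysltr2 and Ltb4r1, and Oxgr1, reported as one for leukotriene E4, were below the floor on all 6 arrays. Gpr17, reported as a further receptor of this kind, had a mean below the floor.

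Peptidases of the cell surface and of peptide signals made up a list of 37 genes. Of 23 above the floor, 11 were above 0 and 12 below, with a median log2 change of −0.0036. By limma 0 passed the adjusted threshold, 2 were higher and 2 lower at an unadjusted p under 0.05, and with weighted arrays 1 passed, Cpz. In 7 of the 23 the groups lay apart, as they did in 22.2% of all genes tested, 9.56% with the mesonephros-derived group higher. Cpe, carboxypeptidase E, which trims peptide hormones, read 15748, 11623 and 10037 against 6069, 7505 and 6810.2, a log2 difference of 0.85 ± 0.20 (SE; adjusted p = 0.214 in limma), or 0.51 after quantile normalization and 0.41 with the spike covariate. Cpz, a secreted carboxypeptidase, stood at 1.18 ± 0.29 (adjusted p = 0.229). Enpep, aminopeptidase A, which cuts angiotensin II and in the kidney shares the brush border with Anpep, was on the other side, with 4601, 1944 and 2897 against 7613, 5395 and 5136, means of 3147 ± 1346 and 6048 ± 1361 (SD, n = 3 each; limma adjusted p = 0.270). Ece2, an endothelin-converting enzyme, stood at −1.93 ± 0.82 (adjusted p = 0.357), with 154, 22.4 and 562 against 628, 594 and 518, and at −0.92 without mesonephros-derived replicate 2. Ace, the angiotensin-converting enzyme, stood at 0.47 ± 0.37, or 0.13 without mesonephros-derived replicate 3, and Dpp4 was below the floor on all 6 arrays.

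**Figure D3:**
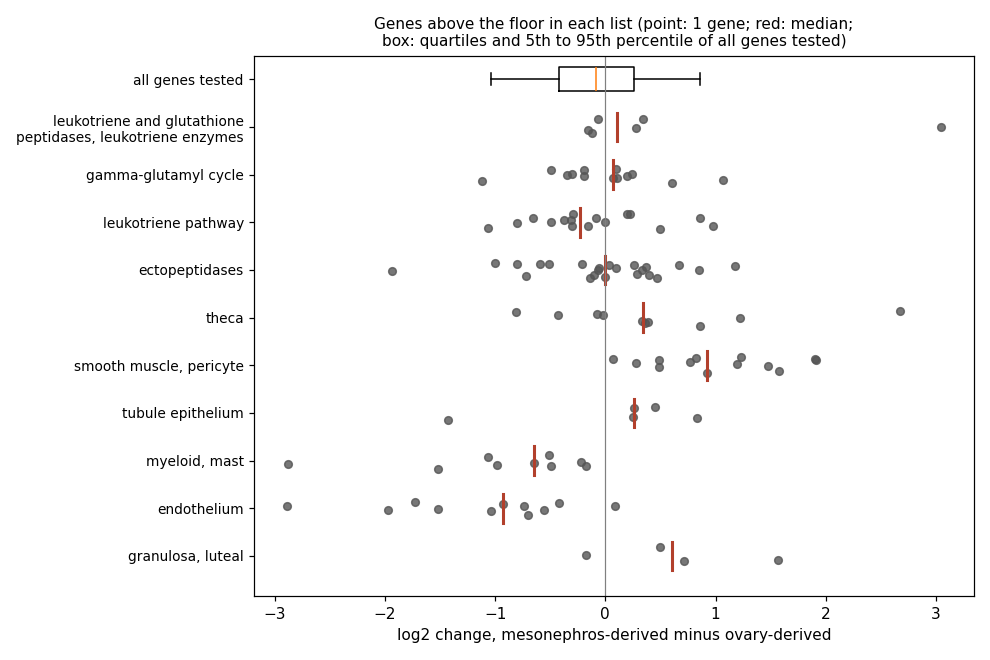
Log2 change, mesonephros-derived minus ovary-derived, of every gene above the floor in each list (grey points, 1 per gene), with the list's median in red and, at the top, a box for all 11703 genes tested. Dpep1, at 3.04, lies apart from the other 5 member genes, while the gamma-glutamyl cycle, leukotriene and ectopeptidase lists have medians of 0.07, −0.23 and −0.0036.

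Markers of cell types were read beside Dpep1, since its level in a sorted population depends on which cells are in it. Of 12 theca genes 10 were measured, all above the floor, with 6 above 0 and 4 below and a median log2 change of 0.34, and Lhcgr and Insl3 were not analysed here. The summed signal was 67258 to 78226 in mesonephros-derived and 51172 to 55724 in ovary-derived arrays. The genes ran from Cyp17a1 at 2.67 ± 0.45 (SE; adjusted p = 0.106 in limma) to Gli1, the gene behind the label, at −0.81 ± 0.50, or −0.23 without mesonephros-derived replicate 1. Cyp17a1, the theca enzyme that makes androgens, had a signal of 3346, 10577 and 8689 against 1413, 1304 and 619, Cyp11a1, the side-chain cleavage enzyme, one of 2371, 9988 and 7065 against 2674, 1915 and 2551, and Star, which brings cholesterol into mitochondria, one of 675, 2092 and 1172 against 485, 725 and 764. In these 3 genes, the last 2 of them named after their values were seen, mesonephros-derived replicate 1 was the lowest of its group and replicate 2 the highest, as for Dpep1 1435943_at but not 1419674_a_at. Nr5a1, the regulator of steroid-making genes, had the opposite order, at 2062, 833 and 1431 against 1919, 1595 and 1998. Of the rest of the theca list, only Gli1 had the order of the 3 genes, with a change below 0. Hsd3b1, at 16002, 18914 and 13295 against 11324, 9471 and 16815, and Nr2f2 were lowest in mesonephros-derived replicate 3. Ptch1 and Tcf21 were lowest in replicate 2, and Pdgfra was lowest in replicate 1 but highest in replicate 3. Smooth muscle and pericyte markers had a summed signal of 92928 to 119059.5 in mesonephros-derived and of 45163 to 54505 in ovary-derived arrays. Of this list 13 of 13 genes were above 0, where 5091 of all 11703 genes tested were. Among the 13 was Cspg4 at 0.07, whose sign turned without single arrays. In 9 of the 13 the groups lay apart, against 22.2% of all genes tested. Myh11, the smooth muscle myosin, was one of 2 genes of this list past the adjusted threshold, which 0.0427% of all genes passed, at 1.92 ± 0.18 (SE; adjusted p = 0.0277 in limma). Its change lay between 1.69 and 1.99 over 18 alternatives, but the call was lost in 6, which were eBayes without trend, the spike covariate, and leaving out mesonephros-derived replicate 3 or any one ovary-derived array. The part of theca and smooth muscle cells in the result for Dpep1 was not tested.

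Dpep1, Anpep and Mme are known from kidney tubules, and the mesonephros forms tubules. Of 18 tubule genes 16 were measured, with a summed signal of 1958 to 3337 in mesonephros-derived and of 2005 to 2305 in ovary-derived arrays. Mesonephros-derived replicate 1 had the highest sum, and it was the highest array for Anpep and Dpep1 1419674_a_at but the lowest of its group for Dpep1 1435943_at and both Mme probe sets. The part of tubule cells in these signals was not tested. Lrp2, Slc34a1, Aqp1, Umod, Pax8, Hnf4a, Epcam and Krt8 were below the floor on all 6 arrays. Of the 5 genes above it 4 were above 0 and 1 below. Slc22a6, an anion transporter, stood highest at 0.83 ± 0.46 (SE; adjusted p = 0.451 in limma) and Emx2, a urogenital transcription factor, lowest at −1.43 ± 0.48 (adjusted p = 0.288). Endothelial markers had a summed signal of 4484 to 9312 against 7369 to 11409, with 10 of 11 genes below 0, where 6612 of all 11703 genes tested were. Granulosa and luteal markers had one of 5309 to 6578 against 4717 to 6538, with 3 of 4 genes above 0, and adipocyte markers one of 126 to 883 against 218 to 337, with 1 of 2 above 0. Lymphoid markers had one of 156 to 238 against 158 to 165, with 0 genes above the floor. By limma 0 genes passed the adjusted threshold in the theca, tubule, myeloid, endothelial, granulosa and adipocyte lists. At an unadjusted limma p under 0.05 these lists held 2, 1, 1, 4, 1 and 1 genes, of 10, 5, 9, 11, 4 and 2 tested. Those of the theca, granulosa and adipocyte lists were higher in the mesonephros-derived group and the rest lower. Over all genes tested 13.7% were past this p. With weighted arrays 2, 0, 0, 2, 0 and 1 passed the adjusted threshold, as did 129 of all 11703 genes. In the smooth muscle list 9 of 13 genes were past the unadjusted p, all higher, and 6 passed with weighted arrays.

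The genes most like Dpep1 were looked for by Pearson's correlation with 1435943_at over the 6 arrays, on the log2 scale. Since the groups differ, such a correlation mostly ranks genes that separate them, and it is given as a description. Dmpk, a protein kinase of muscle, came first with r = 0.996, and had a signal of 1471, 2482 and 2261 against 828, 736 and 842. Dtna, a dystrobrevin, followed at 0.994, Tcn2, the carrier of vitamin B12, at 0.990, and Akap10 and Mospd3 at 0.99 and 0.98. At the other end, Pgr, the progesterone receptor, had r = −0.995, with a signal of 144, 97.7 and 104 against 431, 516 and 388, and Ier2, Gypc, Plekhg1 and Pif1 had r = −0.99. Other probe sets of these genes did not always follow, since another of Pgr above the floor had a log2 change of −0.16, and the lowest among the others was −0.01 for Dtna, 0.02 for Akap10, 0.12 for Mospd3 and 0.14 for Tcn2, against 3.27 for the other of Dmpk. Of the 10 theca genes, Cyp17a1 had the highest r at 0.94, ranking 55 of 11702 genes. Nr5a1 at −0.63, Ptch1 at −0.40 and Gli1 at −0.32 lay below 0. The 13 smooth muscle and pericyte genes ran from −0.04 for Cspg4 to 0.97 for Actg2, which ranked 13. Myh11 had r = 0.93, ranking 88. The other members lay from −0.39 for Lta4h to 0.55 for Alox5ap, with Anpep at −0.09, Mme at 0.05 and Ggt5 at 0.0032.

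**Figure D4:**
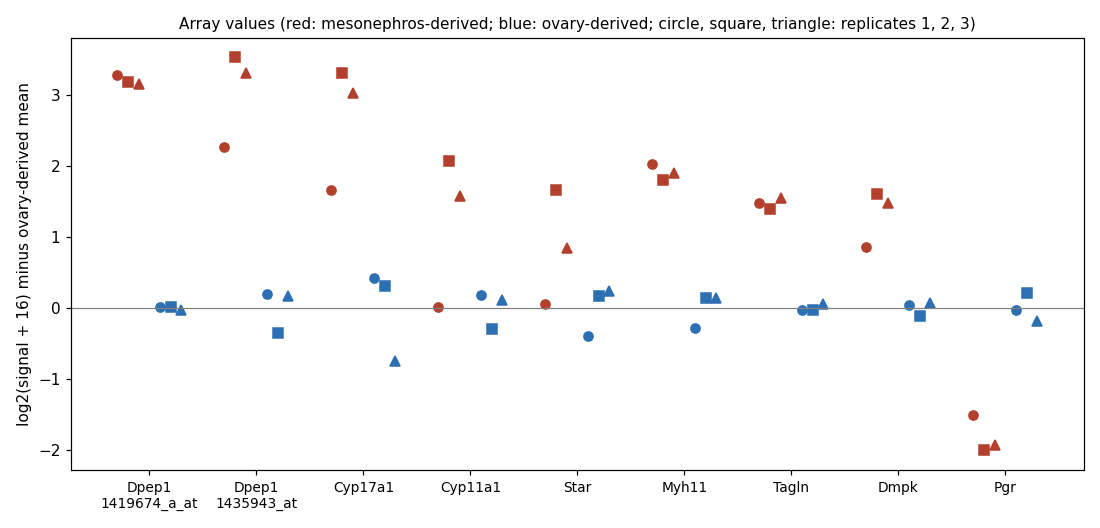
Log2(signal + 16) of each array minus the ovary-derived mean, with mesonephros-derived arrays in red and ovary-derived in blue. Symbols mark replicates 1, 2 and 3. Shown are the Dpep1 probe sets, the theca genes Cyp17a1, Cyp11a1 and Star, and the smooth muscle genes Myh11 and Tagln. Dmpk and Pgr, also shown, are the genes most and least like Dpep1 by its probe set 1435943_at. Replicate 1 is the lowest mesonephros-derived array for Dpep1 1435943_at, Cyp17a1, Cyp11a1, Star and Dmpk, but not for Dpep1 1419674_a_at, Myh11 or Tagln. Of the smooth muscle and pericyte genes not drawn, it is also the lowest for Actg2, Cnn1, Des, Lmod1, Smtn and Notch3. For Acta2, Mylk, Rgs5, Cspg4 and Pdgfrb it is not.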

How the data were processed

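RNA of 6 sorted cell samples was read on 1-colour arrays. The authors deposited 1 linear intensity per probe set and array, made with MAS5, per the submitters' processing notes, with version and settings not given in the sources used here. After trimming 2% at each end every array had a mean of 500, so no further scaling was applied. RNA input was set by volume, not by mass, per the labels' protocols. The labels do not say that samples of a group came from separate animals, so errors and p-values reflect only how these samples scatter, part of which may be technical, and 3 arrays per group limit how precise they are.

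Of 45101 probe sets 64 were controls and 34945 of the others had 1 gene symbol in the platform annotation; 932 with several symbols and 9160 unnamed here named no gene. The identifiers of all 8 members measured matched the mouse RefSeq gene table. The promoter sequence is from RefSeq (GRCm38.p6).

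Intensities were moved to log2(signal + 16), which understates changes of dim genes. Each gene was represented by its probe set with the highest mean, and genes under the 40th percentile of probe set means (a signal of 99.4), the floor, were not tested, which left 11703 genes. The groups' difference was fitted in R 4.3.3 by limma 3.58.1 (eBayes with an intensity trend; checked on simulated data), with Benjamini-Hochberg adjustment over all genes, and likewise over all 45037 probe sets without controls and without a floor. Changes of members' probe sets and their SE are from the second fit, all others from the first.

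The members and gene lists were chosen with earlier results of these data known. Named were all members, the 4 genes with the smallest p in each pathway list, a fixed set of relatives and receptors, the extremes of cell type lists and the 5 genes most and least correlated with Dpep1; picked genes without values of their own are covered by the counts of their lists. Cyp11a1, Star and Nr5a1 were named after their values were seen. So were the other theca and smooth muscle genes named for their order of replicates. Tagln was drawn in a figure outside these rules. Alternatives were pseudocounts of 1 and 64, no floor, a floor at the 60th percentile, averaging the probe sets of a gene, centring arrays on their median, quantile normalization, eBayes without trend or robust, array weights, the replicate number as a block, leaving out each array and, added after the data were seen, a covariate for the poly-A spikes.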

Additional observations from a re-analysis of the deposited data

How the results depend on the processing

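Over the 14 member probe sets, 19 of 168 values changed sign, none of them for Dpep1, in the alternatives that can move a fitted change (both eBayes settings and the replicate block cannot). Dpep1 lay between 2.80 and 3.43 at the gene level over 18 alternatives. The count of member genes past the threshold, 1, was 0 with eBayes without the trend and with the poly-A spike covariate, and 0 to 1 without 1 array, being 1 only without mesonephros-derived replicate 1. The count of member probe sets, 1, was 2 with median centring, array weights and the replicate block, 0 without the trend and with the spike covariate, and 0 to 2 without 1 array. The number of all genes past the threshold, 5, was 3 with a pseudocount of 1, 2 with median centring, 9 with the mean of probe sets, 129 with array weights, 0 without the trend and with the spike covariate, and 0 to 58 without 1 array. The ectopeptidase count, 0, was 1 with array weights, and the other pathway counts stayed at 0 in all 18 alternatives.

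Pairing by replicate number was not seen: deviations from the group means of arrays with the same number correlated at −0.000479, 0.0711 and −0.01. With 3 arrays per group, such values cannot settle whether samples were paired. With the replicate block 4 genes were past the threshold, Dpep1 among them.

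With the spike covariate, which is high in the mesonephros-derived group and so leaves little to estimate the groups from, Dpep1 stood at 3.39, Anpep at −1.19, Mme at 0.78, Ggt5 at 0.46, Alox5ap at 1.40 and Lta4h at −0.89, and Ece2 (0.91), Mgst3 (1.31), Hsd3b1 (−0.27), Lipe (0.53) and Pdgfra (0.17) lay on the other side of 0. With array weights Anpep stood at −0.35 and Mme at 0.05 at the gene level, and Lipe (0.14) and Pdgfra (0.06) changed sides. Hsd3b1 (−0.16) and Nr2f2 (−0.12) did so after quantile normalization, Pdgfra (0.06) with median centring and Ggct (−0.03) with the mean of probe sets. Leaving out 1 array did so for Cspg4 (−0.16 to 0.38), Emcn (−0.12 to 0.47), Fcer1g (−0.87 to 0.52), Gclc (−0.17 to 0.44), Pdgfra (−0.09 to 0.10) and Ptch1 (−0.34 to 0.08). The causes were not tested. Signals below the floor give no order or fold for Ltc4s and Alox5.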
